A study of Mus musculus with 4 samples.

Results

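Chromosome 11 of the mouse was examined in bins of 10 kb, counted from the start of the chromosome, for tags of Ldb1, Tal1 and Gata2 chromatin immunoprecipitation. The chromosome held 12180 of the 246252 bins of all autosomes, and it was chosen by its measured share of bins with more factor than IgG tags, which earlier results of these libraries had put highest. All its bins up to the last tag were members. Of these, 11861 had a tag in at least 1 library, and 11575 had at least 5 tags in the control library and were evaluated. The chromatin came from freshly isolated bone marrow cells from which cells with lineage markers had been removed with magnetic beads, which leaves a mixture enriched for blood progenitor cells. Each of the 4 antibodies (against Ldb1, Tal1 (also called Scl), Gata2, or control IgG) had 1 library, and no genotype, strain, age or treatment that would separate the groups is given in the labels. The series was made to learn what Ldb1 contributes to maintaining haematopoietic stem cells. No comparison has a replicate. The intervals are 95% exact intervals that cover counting error only, and no test between conditions was possible.

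Ldb1 does not contact DNA itself. It is an adaptor that joins LIM-domain proteins such as Lmo2 to DNA-bound partners and can associate with itself, and it is known for holding distant enhancers and promoters together in blood cells. Tal1 is a basic helix-loop-helix factor that binds E-box motifs with an E-protein partner. Gata2 is a zinc finger factor that binds GATA motifs in stem and early progenitor cells. In blood progenitors all of them can be part of the same complex, which often occupies short enhancers. Control IgG recognises none of them, so its tags record how readily a place yields and maps background chromatin. Positions are in the build mm8. No genome or annotation of that build was used here, so bins are not assigned to genes, exons or introns and no sequence is printed.

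Counted once per position and strand, the libraries held 4056964 Ldb1, 9091843 Tal1, 6059558 Gata2 and 3614604 IgG tags outside the mitochondrial genome. Chromosome 11 received 5.50% of the Ldb1 tags, 5.61% of the Tal1 tags and 5.47% of the Gata2 tags, but 4.63% of the IgG tags. In evaluated bins this came to a mean of 19.1 Ldb1, 43.6 Tal1, 28.4 Gata2 and 14.4 IgG tags per bin. Each factor thus had more tags per bin here than on any of the other 18 autosomes, whereas IgG ranked 18th of 19. Scaled by library totals, the tag number of all evaluated bins together was 1.18 times that of IgG for Ldb1 (1.17 to 1.19), 1.21 times for Tal1 (1.20 to 1.21) and 1.18 times for Gata2 (1.17 to 1.18). On the other autosomes together these ratios were 0.997, 1.00 and 1.00.

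A bin was called higher where the factor had at least 2 times as many tags as IgG, both per 1000000 counted tags of the library, and the interval of that ratio lay above 1. It was called lower by the mirror rule. By this rule 1299 of the 11575 evaluated bins of chromosome 11 were higher for Ldb1, or 11.2% (10.7 to 11.8), against 6.23% of all autosomal bins. For Tal1 1540 bins were higher, or 13.3% (12.7 to 13.9), against 7.69%. For Gata2 1459 bins were higher, or 12.6% (12.01 to 13.2), against 7.08%. Bins called lower numbered 371 for Ldb1 (3.21%, background 5.11%), 593 for Tal1 (5.12%, background 7.15%) and 414 for Gata2 (3.58%, background 5.55%). Chromosome 11 was chosen for this contrast, so the counts are given as a description. Bins with only 5 to 9 IgG tags made up 18.4% of the evaluated bins but held 600 of the 1299 higher bins for Ldb1 (46.2%), 565 for Tal1 (36.7%) and 576 for Gata2 (39.5%). Since lower bins were nearly as common as higher bins over the genome, a call at 2-fold in a single bin is weak by itself.

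The chromosome came first among the 19 autosomes for all 3 factors. After it came chromosome 7 for Ldb1 with 8.76% of bins higher, chromosome 19 for Tal1 with 10.76% and chromosome 19 for Gata2 with 9.94%. Chromosome 3 was last for each factor, with 3.33% for Ldb1, 4.86% for Tal1 and 4.56% for Gata2. Relative to the other autosomes together, higher bins were 1.88 times as frequent for Ldb1 (1.78 to 1.99), 1.802 times for Tal1 (1.71 to 1.90) and 1.86 times for Gata2 (1.76 to 1.96). The median bin also stood highest, with ratios over IgG of 1.09 (Ldb1), 1.03 (Tal1) and 1.08 (Gata2). The medians of the other autosomes ran from 0.846 to 1.01, from 0.816 to 0.994 and from 0.862 to 1.02 in that order of factors.

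**Figure D1:**
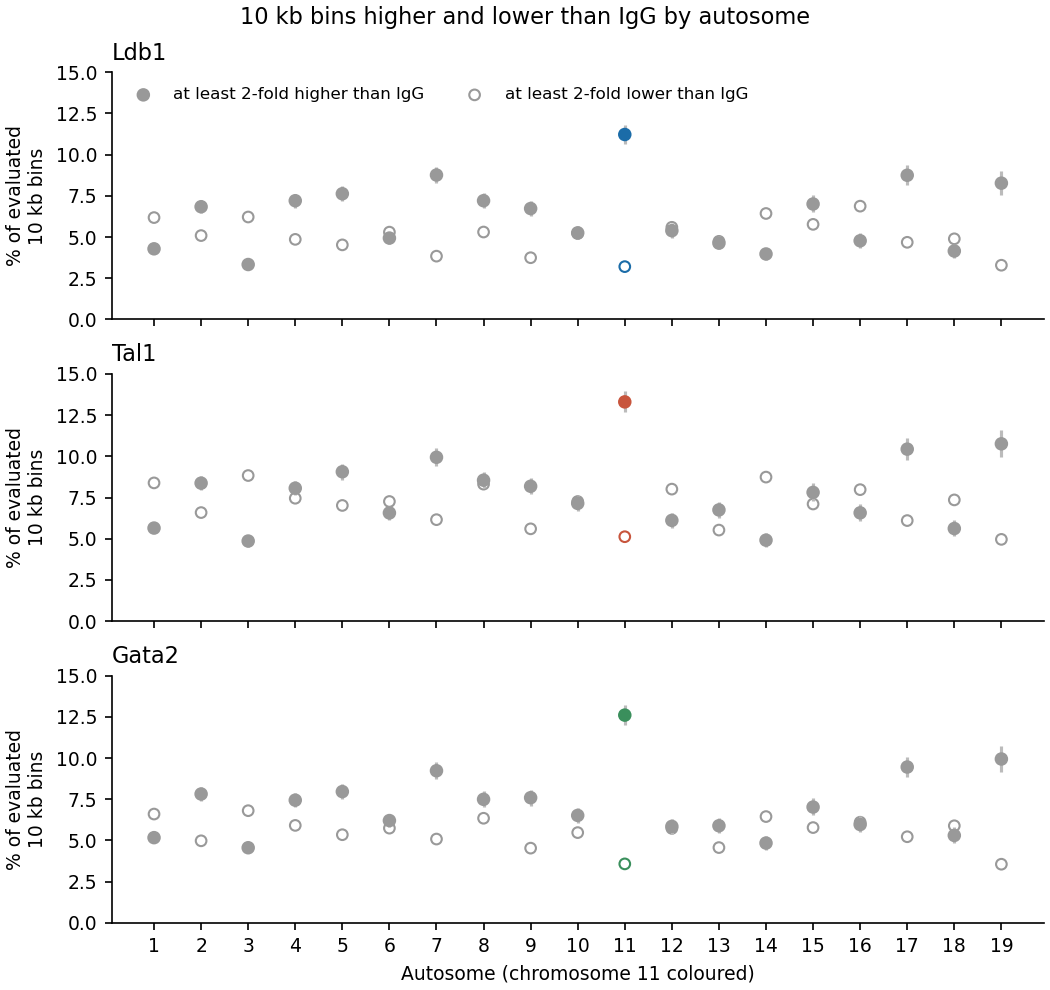
Share of evaluated 10 kb bins (y axis, percent) that were at least 2-fold higher (filled circles, with 95% exact intervals) or at least 2-fold lower (open circles) than IgG on each autosome (x axis). Chromosome 11, coloured, has 11.2% of bins higher for Ldb1, 13.3% for Tal1 and 12.6% for Gata2, above all the other autosomes.

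Strong bins had a ratio of at least 4 and an interval above 2, and chromosome 11 had the largest share of them for each factor. There were 155 for Ldb1 (1.34% of evaluated bins, against 0.714% over all autosomes), 297 for Tal1 (2.57%, against 1.42%) and 113 for Gata2 (0.976%, against 0.521%). The highest value elsewhere was 1.03% for Ldb1 on chromosome 17, 2.31% for Tal1 on chromosome 19 and 0.855% for Gata2 on chromosome 17. Higher bins were more numerous here, and their median ratios were close to those elsewhere. The median ratio of a higher bin was 2.80 on chromosome 11 and 2.78 elsewhere for Ldb1, 2.78 in both for Tal1, and 2.63 and 2.62 for Gata2. The call at 2-fold bounds these medians from below, so they say little about height. Over all evaluated bins, the 99th percentile of the ratio was 4.76 here and 3.86 elsewhere for Ldb1. It was 5.94 and 4.65 for Tal1, and 4.28 and 3.58 for Gata2. Higher bins held 21.4% of the chromosome's Ldb1 tags, 29.0% of its Tal1 tags and 23.0% of its Gata2 tags, while the same bins held 8.11%, 10.7% and 9.62% of its IgG tags. The call itself fixed the direction of this difference, so the shares are given as amounts only.

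The IgG library moved with these calls. Bins called higher had a median of 10 IgG tags for Ldb1, 11 for Tal1 and 10 for Gata2, against 14 in the bins not called higher, and bins called lower had a median of 21 or 22. Each library was therefore also set against its own median over evaluated autosomal bins (15 Ldb1, 32 Tal1, 23 Gata2 and 14 IgG tags), without use of IgG tags in the ratio. Bins of at least 2 times that median, with an interval above it, made up 8.92% of chromosome 11 for Ldb1 (4.96% over all autosomes), 12.7% for Tal1 (7.71%) and 9.77% for Gata2 (5.8%). For IgG they made up 1.17% (1.77%). The 3 factors were also above their all-autosome shares when IgG was not part of the ratio. Chromosome 11 was chosen by tags of the same factor libraries, and evaluated bins still needed at least 5 IgG tags, so this is a description.

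This rule also lets the factors be set side by side without a shared control. Of 1032 chromosome 11 bins high in Ldb1, 789 were also high in Tal1, which is 76.5% of the Ldb1 list and 53.6% of the 1471 Tal1 bins. Ldb1 and Gata2 shared 572 bins, which is 55.4% of the Ldb1 list and 50.6% of the 1131 Gata2 bins. Tal1 and Gata2 shared 845 bins, or 57.4% and 74.7% of their lists. The overlaps of pairs were not set against other autosomes, so they do not show whether such sharing is particular to chromosome 11. Bins high in all 3 numbered 536, or 4.63% of evaluated bins, against 2.46% on the other autosomes. Of these 536 bins 23 were also high in IgG, or 4.29%, against 1.17% of all evaluated bins of the chromosome, so bins high in the factors were high in IgG more often than bins at large. The part of this in the overlap was not tested.

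Enrichment was uneven along the chromosome. Most of the part below 50 Mb was poor, and most of the part beyond it was rich (this boundary was set after the values had been seen). Beyond 50 Mb lay 60.7% of the evaluated bins but 83.1% of the bins higher for Ldb1, 82.1% of those for Tal1 and 83.6% of those for Gata2. Of the strong bins, this part held 138 of 155 for Ldb1, 250 of 297 for Tal1 and 101 of 113 for Gata2. Summed over its evaluated bins, Ldb1 stood at 1.34 times IgG (1.33 to 1.35), Tal1 had a ratio of 1.40 (1.39 to 1.41) and Gata2 of 1.34 (1.33 to 1.35). Below 50 Mb the ratios were 0.967, 0.947 and 0.959, and the share of higher bins was 4.81% for Ldb1, 6.07% for Tal1 and 5.27% for Gata2. All 3 of these shares were under the autosomal background, so the excess over the background lay beyond 50 Mb. An exception was the start: up to 10 Mb, 84 of 676 evaluated bins were higher for Ldb1, 92 for Tal1 and 87 for Gata2, most of them between 3 and 7 Mb. The libraries taken alone also differed across this boundary, but their tags enter the ratios seen before it was set, so this is a description. Bins of at least 2 times the own median went from 4.70% below 50 Mb to 11.6% beyond for Ldb1, from 7.12% to 16.3% for Tal1 and from 5.45% to 12.6% for Gata2, while those of IgG went from 1.85% to 0.740%.

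In segments of 10 Mb the share of higher bins did not climb steadily. Between 10 and 50 Mb, each segment of 953 to 980 evaluated bins held 19 to 52 bins higher for Ldb1, 33 to 54 for Tal1 and 32 to 45 for Gata2. Between 50 and 80 Mb, segments of 972 to 978 evaluated bins held 120 to 153, 138 to 198 and 128 to 184. The segment from 80 to 90 Mb fell back to 95, 129 and 117 of 984. The segment from 110 to 120 Mb had the most Ldb1 bins (219 of 979) and the most Gata2 bins (204), and the segment from 100 to 110 Mb the most Tal1 bins (212 of 982). The short remainder from 120 Mb to the last tag had 58, 60 and 55 higher bins among only 175 evaluated, which is a larger share than in any full segment.

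Stretches of 1 Mb gave the finer pattern. Of 122 stretches, 119 had at least 50 evaluated bins. The share of higher bins ran from 0 to 43.9% for Ldb1 with a median of 8.16%, from 0 to 42.7% for Tal1 with a median of 10.5%, and from 0 to 39.8% for Gata2 with a median of 10.3%. The 3 comparisons share the IgG library, whose level itself differed between stretches.

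The 5 richest stretches, by the sum of the 3 shares, lay from 120 to 121 Mb, 115 to 116 Mb, 116 to 117 Mb, 100 to 101 Mb and 69 to 70 Mb. From 120 to 121 Mb, 43 of 98 evaluated bins were higher for Ldb1, 40 for Tal1 and 39 for Gata2, and none was lower for any factor. The summed tags there were 2.04 times IgG for Ldb1 (1.91 to 2.19), 2.20 times for Tal1 (2.07 to 2.34) and 1.96 times for Gata2 (1.83 to 2.09). The stretch from 115 to 116 Mb had the largest summed Tal1 ratio of the chromosome, 2.54 (2.38 to 2.70), beside 1.96 for Ldb1 and 2.12 for Gata2. The largest Ldb1 ratio was in the next stretch, from 116 to 117 Mb, at 2.20 (2.05 to 2.36), where Tal1 stood at 2.41 and Gata2 at 1.84. The stretch from 69 to 70 Mb, with 34, 37 and 37 higher bins of 98, had 14 bins that were strong for Tal1, 8 for Ldb1 and 7 for Gata2. Thus 4 of the 5 lay at or beyond 100 Mb.

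Levels of the libraries differed between rich and empty stretches. In the 10 stretches richest in higher bins, a bin held a mean of 6.29 Ldb1, 6.85 Tal1 and 6.09 Gata2 tags per 1000000 tags of the library but 3.32 for IgG. In the 12 stretches without a higher bin for any factor these levels were 3.49, 2.997 and 3.32, and the IgG level was 4.63. The ranking used the tags of all 4 libraries, so the direction of these differences was fixed by it and they are given as levels only. Taken without IgG and without the ranking, over the 119 stretches the log2 mean tag numbers correlated at 0.953 for Ldb1 and Tal1, 0.940 for Ldb1 and Gata2 and 0.975 for Tal1 and Gata2. With IgG the values were -0.10 (Ldb1), -0.12 (Tal1) and -0.04 (Gata2), and over the 118 stretches other than that from 3 to 4 Mb they were -0.53, -0.42 and -0.37. These correlations describe neighbouring places that share depth, mappability and base composition, and how far these account for them was not tested.

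**Figure D2:**
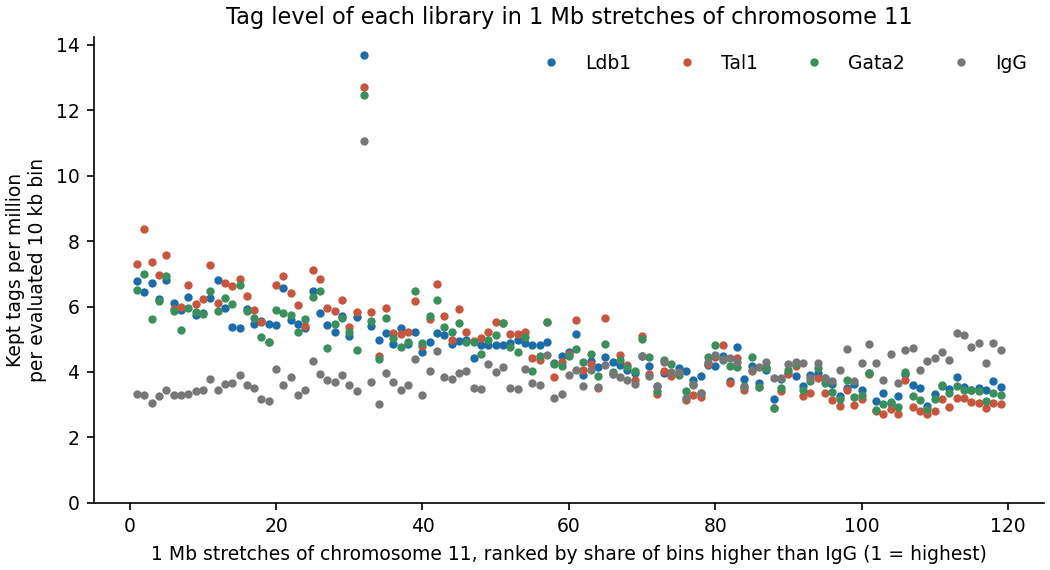
Mean tags per 1000000 tags of the library per evaluated 10 kb bin (y axis) of each library in 119 stretches of 1 Mb on chromosome 11, ranked by the summed share of bins higher than IgG for the 3 factors (x axis, 1 is richest). Mean factor levels are 6.09 to 6.85 in the top 10 stretches and 2.997 to 3.49 in the 12 tied at the end, IgG levels are 3.32 and 4.63, the ranking fixes these directions, and the stretch far above the others is dense in all 4 libraries.

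The excess of chromosome 11 over the other autosomes was smaller when set against the level of the surrounding 1 Mb. When each ratio was divided by the median ratio of its own 1 Mb stretch, an alternative chosen after seeing the data, the higher bins of chromosome 11 fell to 602 for Ldb1, 880 for Tal1 and 675 for Gata2. They were then 1.28 times (1.18 to 1.39), 1.32 times (1.23 to 1.41) and 1.28 times (1.18 to 1.39) as frequent as on the other autosomes, in place of the 1.802 to 1.88 times given above. Chromosome 11 still ranked first for each factor. The divisor came from the same ratios, and the median bin of chromosome 11 stood highest, so the scaling favoured a smaller excess. The values therefore do not show where the excess comes from.

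Empty stretches were of 2 kinds. The first had no tags at all: 319 bins in 9 runs, of which the run from the chromosome's start to 3000000 made up 300 bins, with its first tag at position 3000105. The next longest tagless run covered 7 bins (chr11:34450001-34520000). No level can be given for such runs. Beyond them, 286 bins had tags but fewer than 5 of IgG and were left out.

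The second kind was well covered by tags but had no higher bin of any factor. In 12 of the 119 stretches no bin was higher for Ldb1, Tal1 or Gata2. They lay from 12 to 15 Mb, 25 to 26 Mb, 36 to 37 Mb, 38 to 40 Mb, 41 to 43 Mb, 47 to 48 Mb and 91 to 93 Mb. The longest run without a higher bin, chr11:11920001-15360000, was 3.44 Mb long with 334 evaluated bins. It held 4475 Ldb1, 8645 Tal1, 6386 Gata2 and 5239 IgG tags. The ratios there were 0.759 for Ldb1 (0.729 to 0.790), 0.652 for Tal1 (0.630 to 0.675) and 0.725 for Gata2 (0.699 to 0.752), so all 3 factors lay below IgG.

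The other long runs were alike. That of chr11:37230001-40380000 (312 evaluated bins) had ratios of 0.722 for Ldb1, 0.619 for Tal1 and 0.684 for Gata2. That of chr11:90550001-93340000 (274 evaluated bins) lay within the rich distal part and had ratios of 0.777, 0.647 and 0.704. That of chr11:40550001-43050000 (238 evaluated bins) had ratios of 0.739, 0.657 and 0.732. The remaining run among the 5 longest was the tagless start, extended to 3020000. IgG was dense in these places, with 15.6 to 18.0 tags per evaluated bin in the 4 covered runs against 14.4 on the whole chromosome. All of these runs, the longest included, were chosen for having no bin higher than IgG. That choice favours low ratios and dense IgG, so their values are given as levels only.

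Chromosome 11 had a smaller share of empty ground than the other autosomes. It was chosen for its large share of higher bins, which leaves less room for runs without them, so this is a description. Runs of more than 50 bins without a higher bin took in 28.9% of its evaluated bins, the smallest share of the 19 autosomes, where the others ranged from 30.2% to 57.1% with a median of 46.6%. Its longest run, of 334 evaluated bins, ranked 18th, and the longest runs of the others ranged from 264 to 865. Higher bins were also more evenly spread: the 12 richest stretches for a factor held 31.4% of the Ldb1 bins (28.9 to 34.0), 28.0% of the Tal1 bins (25.8 to 30.3) and 28.0% of the Gata2 bins (25.7 to 30.4). On the other autosomes the richest 10% of stretches held 33.9% to 55.2%, 35.4% to 46.0% and 33.7% to 45.3%. A chromosome with more higher bins has less room to hold them in few stretches, so these shares are not independent of the counts above.

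At the scale of neighbouring bins, the surroundings of a higher bin were raised as well. A bin 10 kb away from a bin higher for the same factor had a median ratio of 1.60 for Ldb1, 1.70 for Tal1 and 1.65 for Gata2. At 100 kb the medians were 1.45, 1.44 and 1.49, and at 1000 kb 1.27, 1.22 and 1.27, still above the chromosome medians of 1.09, 1.03 and 1.08. Neighbours that were not called themselves had lower medians, 1.34, 1.31 and 1.34 at 10 kb and 1.14, 1.07 and 1.12 at 1000 kb. The higher bins themselves had medians of 2.80, 2.78 and 2.63. They were chosen by their ratio, which favours a drop to their neighbours, so this drop does not show how sharp enrichment was. From the neighbours on, the decline was gradual. Most higher bins lay in the rich distal part of the chromosome, so bins around them can exceed the chromosome medians by location alone. Medians were not set against those of the same part, so the share of location was not tested.

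**Figure D3:**
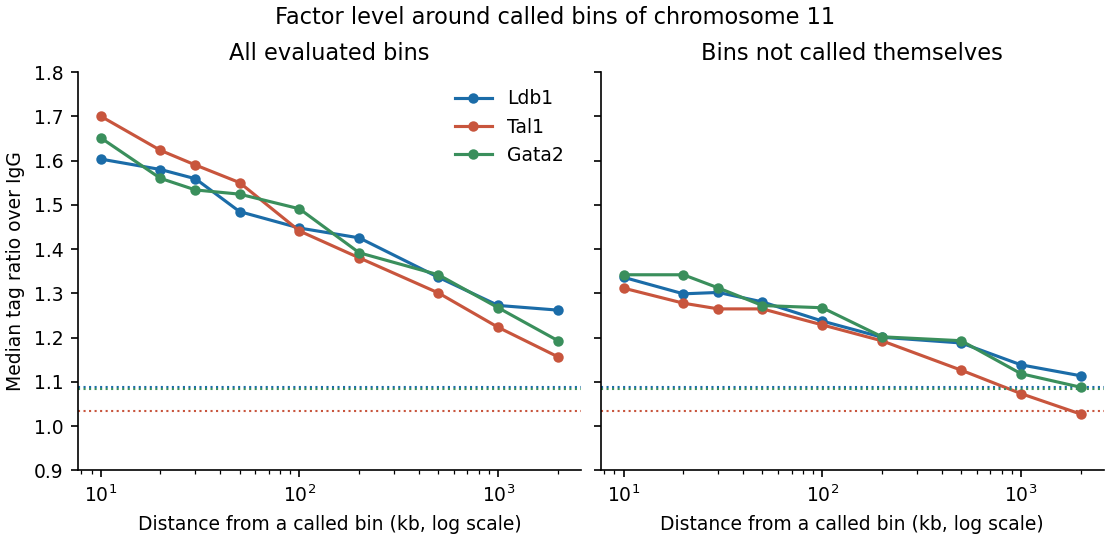
Median ratio over IgG (y axis) of bins at a given distance from a bin called higher for the same factor on chromosome 11 (x axis, log scale), over all evaluated bins (left) and over bins not called themselves (right). Dotted lines are the chromosome medians; the curves decline from 1.60 to 1.70 at 10 kb to 1.22 to 1.27 at 1000 kb on the left.

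Most runs of adjacent higher bins were nevertheless single bins. The Ldb1 bins formed 933 runs of adjacent bins, of which 709 (76.0%) were single bins and 88 had at least 3. Tal1 had 983 runs with 663 single bins (67.4%) and 138 of at least 3, and Gata2 983 runs with 672 single bins (68.4%) and 109 of at least 3. Of higher bins, 45.4% of Ldb1, 56.9% of Tal1 and 53.9% of Gata2 had a higher neighbour. These shares ranked 5th, 5th and first among the 19 autosomes.

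The longest runs named places with different makeup. For Ldb1 it was chr11:102160001-102230000, with 7 adjacent bins holding 539 Ldb1, 708 Tal1, 214 Gata2 and 82 IgG tags. Ldb1 stood at 5.86 times IgG there (4.64 to 7.48), Tal1 had a ratio of 3.43 (2.73 to 4.37) and Gata2 of 1.56 (1.20 to 2.03), and only 1 of the 7 bins was higher for Gata2. For Tal1 it was chr11:106530001-106610000, 8 bins with 225 Ldb1, 825 Tal1, 573 Gata2 and 112 IgG tags. Here Tal1 had a ratio of 2.93 (2.40 to 3.6) and Gata2 of 3.05 (2.49 to 3.77), but Ldb1 of 1.79 (1.42 to 2.27), with 2 of the 8 bins higher for Ldb1. For Gata2 it was chr11:117770001-117840000, 7 bins with ratios of 2.67 for Gata2 (2.09 to 3.44), 3.24 for Tal1 (2.57 to 4.14) and 2.73 for Ldb1 (2.11 to 3.55). The first was led by Ldb1, the second by Tal1 and Gata2, and the last was raised in all 3. Each run was chosen by the calls of its own factor, which favours a high ratio of that factor there.

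Set directly against each other, without IgG, the factors differed by less than they varied along the chromosome. Over the 119 stretches the scaled ratio of Ldb1 to Tal1 tags ran from 0.773 (0.738 to 0.809, from 115 to 116 Mb) to 1.28 (1.20 to 1.36, from 35 to 36 Mb). That of Ldb1 to Gata2 ran from 0.803 (0.761 to 0.846, from 106 to 107 Mb) to 1.21 (1.15 to 1.29, from 58 to 59 Mb). That of Tal1 to Gata2 ran from 0.873 (0.828 to 0.921, from 18 to 19 Mb) to 1.31 (1.26 to 1.37, from 116 to 117 Mb). These ends lie beyond counting error, but Tal1 tags were 36 bp long and the others 25 bp, and the part that mapping had in the ratios was not tested.

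Within a bin, strong enrichment was narrow. To compare bins of unequal depth, every bin with at least 15 tags was thinned at random to 15, and its densest 500 bp was found. At least 5 of the 15 tags fell there in 80.0% of the 155 strong Ldb1 bins, 76.4% of the 297 strong Tal1 bins and 57.5% of the 113 strong Gata2 bins. In bins that were higher but not strong, the shares were 38.5%, 48.1% and 40.1%. In bins not called higher, they were 18.5% of 6205, 14.6% of 9790 and 14.2% of 8967 bins of enough depth, against 9.43% of 5025 bins for IgG. Most moderately higher bins had no such pile of tags, and without the tags of the densest 500 bp their median ratios over IgG were 1.99 (Ldb1), 1.90 (Tal1) and 1.95 (Gata2). In bins not called higher, the same removal lowered the medians from 1.01, 0.948 and 1.00 to 0.757, 0.767 and 0.787. The calls and the piles come from the same tags, so the rise of the share with the ratio is a description.

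**Figure D4:**
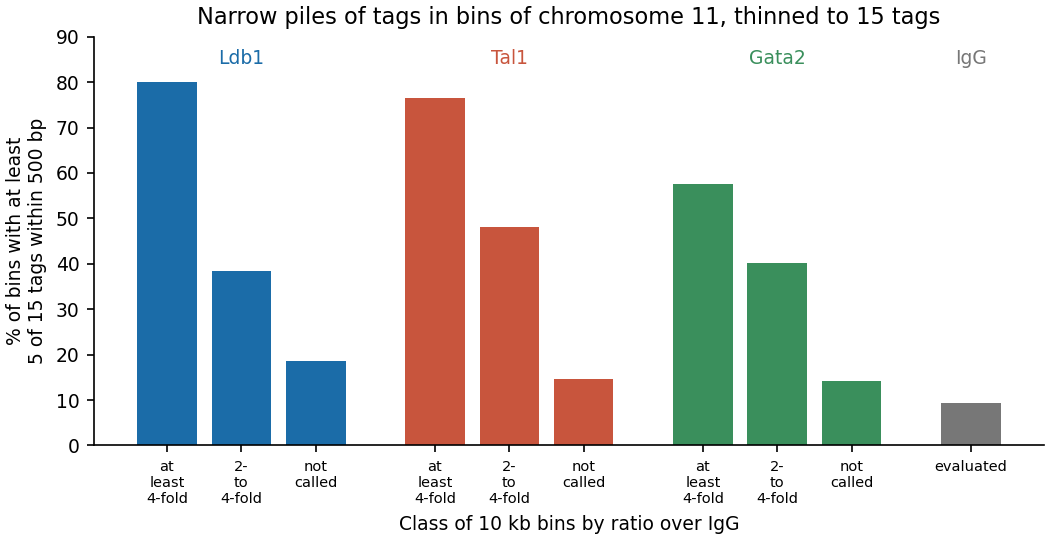
Share of chromosome 11 bins (y axis, percent) in which at least 5 of 15 randomly kept tags lay within 500 bp, by library and by class of bin (x axis). The bars fall from 80.0% to 18.5% for Ldb1, from 76.4% to 14.6% for Tal1 and from 57.5% to 14.2% for Gata2, and IgG stands at 9.43%.

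Without thinning, the difference held only in part. A strong Ldb1 bin had a median of 59 Ldb1 tags, of which 25 lay in its densest 500 bp, and a strong Tal1 bin had 150 Tal1 tags with 59 in that window. A strong Gata2 bin had 73 Gata2 tags with 22 in the window, which is a smaller part. As medians over bins, the densest window held 39.1% of the tags in strong Ldb1 bins, but 23.2% in the other higher bins and 23.8% in bins not called higher. For Tal1 these shares were 37.6%, 24.8% and 18.2%. For Gata2 they were 27.2%, 23.1% and 20%, and the few IgG tags of the strong Gata2 bins had 28.6% in their own densest window. Shares of few tags are high by counting alone, which is why the bins were thinned. Without the tags of its densest window, the median strong bin still had a ratio over IgG of 3.32 (Ldb1), 3.25 (Tal1) and 3.58 (Gata2). The excess of strong bins was thus not limited to that window.

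Individual bins were named by the largest lowest-of-3 ratio over IgG. All 10 lay beyond 50 Mb, where 60.7% of the evaluated bins lie, and they had 5 to 8 IgG tags each, so the choice favoured bins with few IgG tags and their intervals are wide. The first was chr11:77990001-78000000, with 68 Ldb1, 226 Tal1, 112 Gata2 and 7 IgG tags. Its ratios were 8.66 for Ldb1 (3.98 to 22.3), 12.8 for Tal1 (6.13 to 32.3) and 9.54 for Gata2 (4.48 to 24.3), the last being the highest Gata2 ratio of the chromosome. Its tags were spread, with 23.5% of Ldb1, 27.9% of Tal1 and 14.3% of Gata2 tags in the densest 500 bp of each.

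The second, chr11:78640001-78650000, was of the narrow kind. It held 143 Ldb1, 448 Tal1, 116 Gata2 and 8 IgG tags, with ratios of 15.9 (7.87 to 37.6), 22.3 (11.2 to 51.9) and 8.65 (4.25 to 20.5). The Tal1 ratio was the largest of any evaluated bin on the chromosome. In their densest 500 bp lay 91 of the Ldb1, 288 of the Tal1 and 51 of the Gata2 tags, which is 63.6%, 64.3% and 44.0%. The 3 windows began within 71 bp of each other, at 78648984 (Ldb1), 78648913 (Tal1) and 78648958 (Gata2). Tags on the reverse strand lay a median of 87.5, 111 and 106.5 bp to the right of those on the forward strand in the order Ldb1, Tal1, Gata2.

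The largest Ldb1 ratio of the chromosome was in chr11:77880001-77890000, with 235 Ldb1, 258 Tal1, 50 Gata2 and 5 IgG tags. Ldb1 stood at 41.9 times IgG (17.7 to 130.2), with Tal1 and Gata2 ratios of 20.5 (8.68 to 63.7) and 5.97 (2.39 to 19.2). The bin held a pair of piles. In the denser one, from 77885840 on, 123 Ldb1 tags fell within 500 bp, beside 123 Tal1 tags in a window 91 bp to the left. A further pile from 77882013 on had 76 Ldb1 tags, and Tal1 had 75 tags from 77882026 on, whereas Gata2 had no second window with more than 5 tags. Gata2 was the weakest of the 3 at both piles.

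The remaining 7 were chr11:69140001-69150000, chr11:69650001-69660000, chr11:94810001-94820000, chr11:101900001-101910000, chr11:102100001-102110000, chr11:105970001-105980000 and chr11:120110001-120120000. Their lowest ratios lay between 5.64 and 6.95. The densest windows of the 3 factors did not all coincide. Over the 10 bins the densest Ldb1 and Tal1 windows began a median of 122.5 bp apart (19 to 5675 bp) and those of Ldb1 and Gata2 352.5 bp apart (20 to 5637 bp). Both largest distances were in chr11:69140001-69150000, where the densest and second windows held 9 and 7 Ldb1 tags and 11 and 11 Gata2 tags. In chr11:94810001-94820000 they held 20 and 16 Gata2 tags. The second began at 94813752, near the Ldb1 window at 94813610. Where windows are nearly tied, such a distance cannot tell separate piles from shared ones. Pooled around the densest Ldb1 window, 110 Ldb1, 206 Tal1, 36 Gata2 and 0 IgG tags fell in the 100 bp just left of the centre, which for IgG allows up to 3 tags. The centring on Ldb1 and the choice of bins fixed an Ldb1 peak with few IgG tags, and they favour Ldb1 over the other factors. Few bins weighed most: chr11:77880001-77890000 and chr11:78640001-78650000 had 123 and 91 Ldb1 tags in their Ldb1 windows, and 120 and 277 Tal1 tags.

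**Figure D5:**
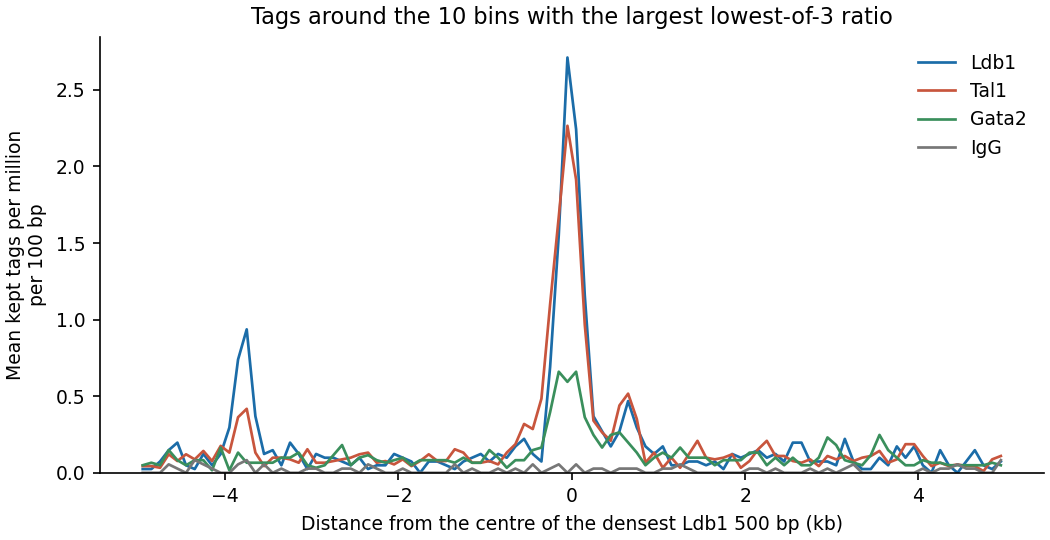
Mean tags per 1000000 tags of the library per 100 bp (y axis) of each library around the centre of the densest Ldb1 500 bp (x axis, kb) in the 10 bins of chromosome 11 with the largest lowest-of-3 ratio. In the 100 bp left of the centre Ldb1 reaches 2.71, Tal1 2.27 and Gata2 0.594, and IgG has 0 tags. The centring on Ldb1 and the choice of bins fixed an Ldb1 peak with few IgG tags. The smaller peak left of the centre lies at the distance of the second pile of the bin with the largest Ldb1 ratio.

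A further ranking, added after seeing the data, used the lowest of the 3 multiples of each library's own median. Taken over all evaluated bins, 8 of its 10 leading bins were also high in IgG and only 2 of the 10 lay beyond 50 Mb. With the 136 bins high in IgG left out, 9 of the 10 leading bins lay beyond 50 Mb, so their position depended on that choice. These 10 had 7 to 21 IgG tags and shared 2 bins with the list above. First was chr11:87560001-87570000, with 103 Ldb1, 333 Tal1, 161 Gata2 and 21 IgG tags. That is 6.87, 10.4 and 7 times the own median for the factors and 1.5 times for IgG. Next was chr11:95170001-95180000, with 254 Ldb1, 559 Tal1, 149 Gata2 and 17 IgG tags, or 16.9, 17.5, 6.48 and 1.21 times the medians, and 73.2% of its Ldb1 tags in 500 bp. Both were strong for Ldb1, Tal1 and Gata2 against IgG as well, with ratios of 4.37, 6.30 and 4.57 in the first and 13.3, 13.1 and 5.23 in the second.

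The bins with most tags were of another kind. For each factor the top 3 bins were the same, chr11:3040001-3050000, chr11:3050001-3060000 and chr11:3060001-3070000, beside the tagless start of the chromosome. The first held 539 Ldb1, 1103 Tal1, 686 Gata2 and 338 IgG tags. The last held 544 Ldb1, 1012 Tal1, 730 Gata2 and 428 IgG tags. Over IgG the ratios of the 3 bins were 1.13 to 1.42 for Ldb1, 0.940 to 1.297 for Tal1 and 1.01 to 1.21 for Gata2, and no window of 500 bp held more than 12.2% of a factor's tags. All 4 libraries were dense there, and none of the 3 bins was called higher for any factor. The stretch from 3 to 4 Mb as a whole had 39.98 IgG tags per evaluated bin, against a median of 13.9 over the stretches, and still had 22, 18 and 19 of its 99 evaluated bins higher for Ldb1, Tal1 and Gata2.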

How the data were processed

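Chromatin immunoprecipitation libraries of Ldb1, Tal1, Gata2 and IgG, 1 each, were used. The deposited files list aligned tags, 1 line each, with position and strand and no normalization. They have no header. Per the submitters' processing notes, positions refer to mm8. The Tal1 tags measured 36 bp and all other tags 25 bp. Neither aligner nor filters were given in the sources used here.

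Tags were counted once per chromosome, 5′ end and strand, which removed 32.9% (Ldb1), 18.3% (Tal1), 14.1% (Gata2) and 29.9% (IgG) of the lines. The IgG file alone listed mitochondrial tags (935), which were left out. The 5′ ends were counted in bins of 10 kb, with totals of kept tags as scale. Evaluated bins had at least 5 IgG tags. Ratios have exact conditional binomial intervals, shares Clopper-Pearson intervals and single counts Poisson intervals, at 95%. Since PCR copies cannot be told from separate molecules, they cover counting error only. All calls were made over all autosomal bins. Calling and its intervals were tested on simulated Poisson counts per bin, and the counting of tags was not. Python 3.11.15, numpy 2.4.6 and scipy 1.17.1 were used.

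Chromosome, bins and rules were chosen with earlier results of these data known. Named bins were the 10 with the largest lowest-of-3 ratio, the 3 with most tags of each factor, the 5 richest and the poorest 1 Mb stretches, and the longest runs; the poorest stretches tied and all 12 are given. Alternatives changed repeated tags, mismatches, depth, scaling, the IgG minimum, bin start and size, fold and interval, 12 in all. The scaling by 1 Mb stretch, the ranking of bins by own median (bins high in IgG left out), the boundary at 50 Mb and the thinning to 15 tags were added after seeing the data.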

Additional observations from a re-analysis of the deposited data

How the results depend on the processing

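Chromosome 11 ranked first of the 19 autosomes for each factor under all 13 alternatives, and higher bins stayed more frequent there than elsewhere. Each alternative recounts tags of the same 4 libraries by which the chromosome was chosen, so this rank is no independent support. The numbers moved more. With at least 10 IgG tags, chromosome 11 had 699 higher bins for Ldb1, 975 for Tal1 and 883 for Gata2, and at 3-fold 520, 644 and 482. Bins of 20 kb gave 701, 802 and 713, bins of 5 kb gave 763 for Ldb1, and a 99% interval gave 762 for Ldb1 and 971 for Gata2. All tags as deposited gave 2027 for Ldb1. Of the evaluated bins 9446 had at least 10 IgG tags, and the share called there was also smaller, 7.4%, 10.3% and 9.35%, since higher bins were frequent among those with 5 to 9. Fewer bins exist at 20 kb. For the other settings the cause was not tested. The ratio to the other autosomes was 2.02 for Ldb1, 1.93 for Tal1 and 2.02 for Gata2 in 20 kb bins, 2.04 for Gata2 at 3-fold, and 1.71 for Ldb1 and 1.74 for Gata2 with all tags. The share of higher bins in the richest 10% of stretches was 35.2% for Ldb1, 31.9% for Tal1 and 31.1% for Gata2 in 20 kb bins. At 3-fold it was 34.8%, 33.2% and 35.3%, with a 99% interval 34.8% for Ldb1 and 30.6% for Gata2, and with all tags 26.1% for Ldb1. Scaling by the median ratio of each 1 Mb stretch gave 602, 880 and 675 bins, ratios of 1.28, 1.32 and 1.28, and shares of 22.8%, 19.9% and 19.9%. No paired analysis was possible because each antibody had 1 library. No library could be left out for the same reason. With a median of 14 IgG tags per bin, a single bin at 2-fold is near the limit of what this depth can show.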
